A study of Homo sapiens with 12 samples.

Results

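DNA methylation is written, copied, oxidised and removed by a small group of enzymes, and 9 of their genes were followed here through the differentiation of human pluripotent stem cells toward blood: DNMT1, UHRF1, DNMT3A, DNMT3B, DNMT3L, TET1, TET2, TET3 and TDG. They were taken by gene symbol from a table of 56593 distinct symbols by a rule that uses no measured value, after earlier results of these data were known, and each of the 9 stood on 1 line of it. RNA-seq was performed on 12 libraries. Of these, 3 came from undifferentiated H1 cells, an established human embryonic stem cell line with no genetic change named in the labels. The other 9 came from H1 cultures induced with activin A and BMP4 for 2 days. Cultures kept beyond day 2 were then fed VEGF and bFGF, so the cells of day 2 preceded that medium. The induced cells were APLNR+ mesoderm cells of day 2, CD31+CD34+ hemogenic endothelial progenitors (HEPs) of day 5 and CD43+ hematopoietic progenitor cells (HPCs) of day 8, with 3 libraries of each. All populations derive from a single line, and the labels do not say whether the 3 libraries of a population came from separate cultures, so the spread between them may be technical.

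Methyl groups are placed on unmethylated CpG sites by the de novo methyltransferases DNMT3A and DNMT3B, with DNMT3L as a partner that has no catalytic activity of its own. At each round of replication DNMT1 copies the pattern onto the new strand, guided by UHRF1, which recognises hemimethylated CpG. The TET dioxygenases oxidise 5-methylcytosine, and the glycosylase TDG excises the most oxidised forms so that base excision repair can restore cytosine. DNMT3B and TET1 are known for high expression in pluripotent cells, while DNMT3A and TET2 are among the genes most often mutated in clonal hematopoiesis and myeloid malignancy.

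Levels are given as FPKM, a count of read fragments divided by transcript length and by how many fragments the library mapped, and the values of single libraries stand in the order of replicates 1, 2 and 3. The summed FPKM of a library ran from 567793 to 1.56e+06, and differed within HEPs and within APLNR+ cells. HEPs had 1.38e+06 in replicate 1, 567793 in replicate 2 and 573082 in replicate 3. APLNR+ cells had 646818, 1.56e+06 and 1.29e+06 in the same order. Absolute depth cannot be read from FPKM. From the steps between very low values, relative depths were estimated at 0.555 to 0.748 for replicate 1 of the 4 populations and at 1 to 1.26 for replicates 2 and 3, on the scale of CD43+ replicate 3. Replicate 1 also stood apart from the others, and values without it are given beside the main changes. Genes of the surface proteins that define the populations were high in the populations named for them, though not there alone. The mean FPKM of APLNR was 0.528 in H1, 383 in APLNR+ cells, 403 in HEPs and 23.7 in HPCs, and that of PECAM1 (CD31) was 0.127, 0.0997, 55.2 and 95.9 in the same order. CD34 averaged 47.7 FPKM in HEPs and 22.2 in HPCs, and SPN (CD43) 75.5 FPKM in HPCs against 0.516 in H1. Of 10 blood genes, 8 averaged at least 1 FPKM in HEPs, while PTPRC, a pan-leukocyte marker, was listed at 0 in all HEP libraries. The summed FPKM of the 10 was 7.49 to 10.3 in H1, 5.57 to 7.77 in APLNR+ cells, 63.2 to 81.4 in HEPs and 2441 to 2990 in HPCs. In HEPs, 10 endothelial genes summed to 409 to 506 FPKM and 8 stromal or muscle genes to 605 to 707 FPKM. The endothelial sum was 9.54 to 11.5 FPKM in H1, 6.28 to 6.81 in APLNR+ cells and 283 to 360 in HPCs. That of the stromal or muscle genes was 96.2 to 132 FPKM in H1, 509 to 668 in APLNR+ cells and 177 to 209 in HPCs. Genes of undifferentiated cells were not gone at the later stages: the summed FPKM of 12 pluripotency genes was 2532 to 2636 in H1, 881 to 969 in APLNR+ cells, 339.98 to 422 in HEPs and 153 to 180.4 in HPCs. The part of remaining undifferentiated cells in the results was not tested. In bulk libraries, fewer cells of a type and less RNA per cell cannot be told apart.

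Stretches of promoter sequence were read first for the genes of the maintenance machinery, which is used in S phase and is often described as under E2F control. RefSeq (GRCh38.p14) gave 19 windows, from 250 bases before to 50 bases after an annotated start, for 8 of the 9 genes. The E2F letters TTTGGCGC, TTTCCCGC or TTTCGCGC, on either strand, were found in 3 of these windows, from 2 genes, and in 2.74% of all 35116 promoter windows. The 3 matches are shown because they fall in both maintenance genes and in no window of the other members. They are printed 5′ to 3′ on the strand of the gene with 11 bases on either side and the E2F letters in capitals. The UHRF1 matches lie at chr19:4909476-4909505 and chr19:4909973-4910002 (plus strand), with the letters starting at positions -14 and -160 from their annotated starts, and the DNMT1 match lies at chr19:10194937-10194966 (minus strand), with the letters starting at position -2.
UHRF1 site near the first start: gccgagttttcGCGGGAAAaaaatcagagc
UHRF1 site before another start: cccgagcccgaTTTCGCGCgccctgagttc
DNMT1 site: catcggtttccGCGCGAAAagccggggcgc
The first and the last carry the letters as their reverse complement. A match describes letters only and was not tested as a binding site. The E2F letters themselves contain CG, and the windows with a match hold 36, 40 and 30 CG, against a median of 14 over all windows. A DNMT3A window without a match holds 46 CG. The share of 2.74% was not matched for CG. The octamer ATGCAAAT, the core recognition sequence of POU factors, was found in 0 of the 19 windows and in 1.77% of all windows.

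DNMT3B was by far the most abundant of the 9 genes in undifferentiated cells and lost most of its transcript at the first step. Its level in H1 was 350.4, 369.9 and 359 FPKM, and in APLNR+ cells 61.5, 66.3 and 61.3 FPKM. HEPs had 48.8, 54.6 and 51.6 FPKM, and HPCs 26.6, 31.9 and 29.7 FPKM. The libraries of the 4 populations did not overlap, and the order from H1 down to HPCs held in every replicate. The means were 359.7 ± 9.75 FPKM in H1, 63.0 ± 2.83 in APLNR+ cells, 51.7 ± 2.89 in HEPs and 29.4 ± 2.68 in HPCs (SD, n = 3), which places H1 5.71 times above mesoderm and 12.2 times above HPCs.

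Differences were tested with limma on log2(FPKM + 1), a scale that understates changes of low genes, over the 14840 genes that reached 1 FPKM in at least 3 libraries. A gene is said to have risen or fallen where the adjusted p was under 0.05 and the difference at least 2-fold on that scale. DNMT3B fell by 2.49 on the log2 scale from H1 to APLNR+ cells (SE 0.09, limma adjusted p = 2.49e-10), a value of -2.49 in replicate 1 alone and -2.50 in replicates 2 and 3 alone. The next step, from APLNR+ cells to HEPs, was a small difference of -0.28 (SE 0.09, limma adjusted p = 0.00994), under the 2-fold minimum. From HEPs to HPCs the difference was -0.80 (SE 0.09, limma adjusted p = 8.45e-06), also under the minimum, so DNMT3B did not fall by the rule at either of these steps taken alone. Over both together, from APLNR+ cells to HPCs, it fell by 1.08 (limma adjusted p = 2.29e-07), and over the whole course from H1 to HPCs by 3.57 (limma adjusted p = 5.95e-12). In replicates 2 and 3 alone these values were -1.03 and -3.52, and from H1 to HEPs, where DNMT3B fell by 2.78 (limma adjusted p = 4.70e-11), -2.76.

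DNMT3A, the second de novo methyltransferase, did not follow DNMT3B after the first step. It was measured at 31.8, 23.5 and 23.3 FPKM in H1 and at 13.4, 11.96 and 10.1 FPKM in APLNR+ cells. HEPs had 18.1, 18.96 and 17.8 FPKM and HPCs 18.7, 20.4 and 17.9 FPKM. APLNR+ cells were lowest in all libraries, H1 was highest, and HEPs and HPCs overlapped between them. From H1 to APLNR+ cells DNMT3A fell by 1.08 on the log2 scale (SE 0.13, limma adjusted p = 1.87e-05), 2.22 times in FPKM, with -1.19 in replicate 1 and -1.02 in replicates 2 and 3. This value lies close to the 2-fold minimum: it was -0.94 without H1 replicate 1 and -0.98 without APLNR+ replicate 3, which end the call, and -0.98 or -0.99 with upper-quartile or median-of-ratios scaling, which also end it. From APLNR+ cells to HEPs DNMT3A was higher by 0.60 (SE 0.13, limma adjusted p = 0.00116), under the minimum, with no overlap of libraries. HEPs and HPCs differed by 0.05 (SE 0.13, limma adjusted p = 0.780). HPCs lay below H1 in all libraries, at a difference of -0.43 (SE 0.13, limma adjusted p = 0.00900), but its size depended on replicate 1 and on scaling. It was -0.74 in replicate 1 and -0.28 in replicates 2 and 3, and it did not pass the test with upper-quartile scaling (-0.32, limma adjusted p = 0.0514) or median-of-ratios scaling (-0.27, limma adjusted p = 0.0862).

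DNMT3L was near the lower end of the table throughout. Its level was 0.0288, 0.00682 and 0.0124 FPKM in H1, at 0.0770, 0.0668 and 0.0569 FPKM in APLNR+ cells, at 0.104, 0.103 and 0.0913 FPKM in HEPs and at 0.0386, 0.0424 and 0.04999 FPKM in HPCs. The populations did not overlap, with HEPs highest and H1 lowest, but no library reached 1 FPKM and the gene was not tested. In GENCODE 29, 27.9% of its 50-base stretches also occur in other genes, chiefly FP565260.4, and 13.0% of its exon bases lie under an antisense gene, AP001059.1. Both of those genes were listed at 0 in all 12 libraries, and how reads were divided among them is not given in the sources used here.

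Within the catalytic de novo pair, the share of DNMT3B was smaller at each later stage. FPKM are scaled per length, so the 2 genes can be set side by side, and DNMT3B made up 93.2% ± 1.33 of their summed FPKM in H1, 84.2% ± 1.91 in APLNR+ cells, 73.8% ± 0.791 in HEPs and 60.7% ± 1.84 in HPCs (SD, n = 3). All 6 pairs of populations were separated, with an exact two-sided permutation p of 0.1 each, the smallest that 3 against 3 libraries can give, and 0.114 after adjustment over 24 tests of shares. Such a share does not depend on scaling between libraries, since it is formed within each. It does carry offsets that differ between genes. In H1, replicate 1 minus the mean of replicates 2 and 3 was 0.43 for DNMT3A and -0.06 for DNMT3B on the log2 scale.

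**Figure D1:**
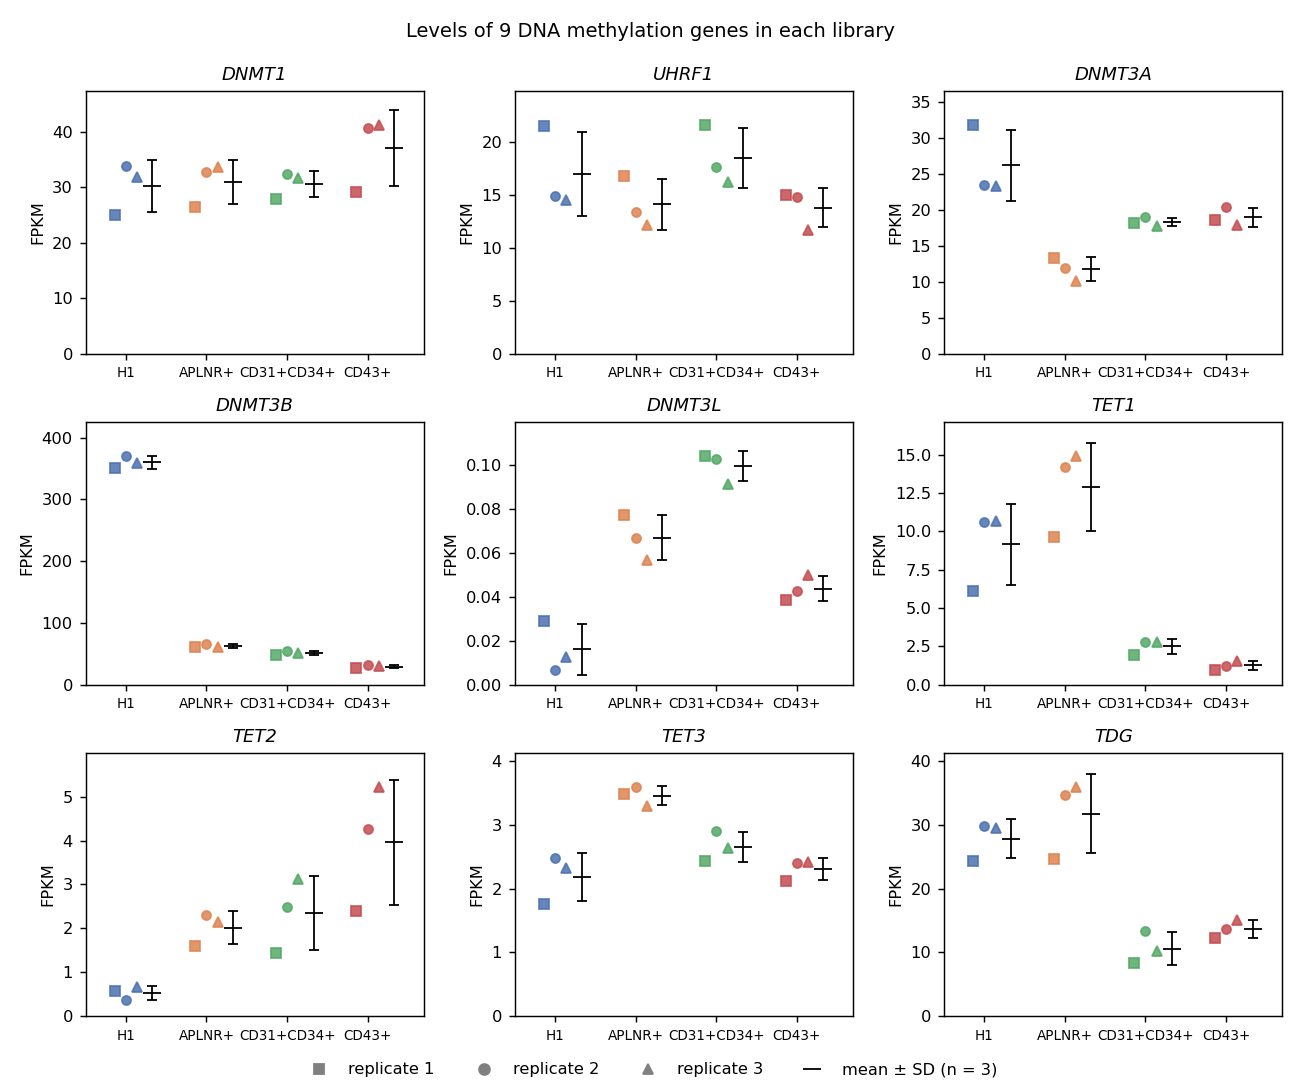
Level of each of the 9 genes in FPKM (vertical axes, all from 0) in the libraries of H1, APLNR+, CD31+CD34+ and CD43+ cells, with symbols for replicates 1, 2 and 3 and bars for mean ± SD (n = 3). DNMT3B fell from a mean of 359.7 FPKM in H1 to 29.4 FPKM in CD43+ cells, TET1 and TDG dropped between APLNR+ and CD31+CD34+ cells, TET2 was lowest in H1, and DNMT1 and UHRF1 overlapped between most populations.

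For the maintenance genes no difference between populations reached 2-fold, and none passed an adjusted p of 0.05 in the fit to all 12 libraries without covariates. DNMT1 was measured at 25.1, 33.9 and 31.8 FPKM in H1, at 26.5, 32.8 and 33.6 FPKM in APLNR+ cells, at 27.9, 32.4 and 31.6 FPKM in HEPs and at 29.2, 40.8 and 41.3 FPKM in HPCs. Replicate 1 was the lowest library in each population, and all pairs of populations overlapped, although HPCs were highest within each replicate number. Its differences on the log2 scale ran from -0.01 between APLNR+ cells and HEPs (SE 0.15, limma adjusted p = 0.958) to 0.28 between H1 and HPCs (SE 0.15, limma adjusted p = 0.120). The H1 to HPC difference was 0.21 in replicate 1 and 0.31 in replicates 2 and 3, and the latter alone gave a limma adjusted p of 0.00275. The adjusted p was also under 0.05 with upper-quartile (0.39, limma adjusted p = 0.0106), quantile (0.34, limma adjusted p = 0.0235) and median-of-ratios scaling (0.44, limma adjusted p = 0.00603), each time with a difference under the 2-fold minimum. DNMT1 shares 1.20% of its 50-base stretches with other genes, and 0.847% of its exon bases lie within S1PR2 on the same strand.

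UHRF1 was measured at 21.6, 14.9 and 14.5 FPKM in H1, at 16.8, 13.4 and 12.1 FPKM in APLNR+ cells, at 21.6, 17.7 and 16.2 FPKM in HEPs and at 14.99, 14.8 and 11.7 FPKM in HPCs. Unlike DNMT1, it was highest in replicate 1 of each population. HEPs lay above HPCs in all libraries and the other pairs overlapped. The largest difference was the one from HEPs to HPCs, at -0.39 (SE 0.17, limma adjusted p = 0.0716). From APLNR+ cells to HEPs the difference was 0.37 (SE 0.17, limma adjusted p = 0.0710). In replicates 2 and 3 alone these were -0.34 (limma adjusted p = 0.0410) and 0.38 (limma adjusted p = 0.0201), under the 2-fold minimum. Of the 50-base stretches of UHRF1, 21.4% also occur in other genes, nearly all in AC112777.1, which was listed at 0.699 to 1.32 FPKM, so the level of UHRF1 may include or lack reads of that copy.

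DNMT1 and UHRF1 are used during replication, and a list of 23 S-phase genes (MCM helicase subunits, PCNA, primase and others) gives the level of that program in the same libraries. Their summed level was 1241 to 1289 FPKM in H1, 704 to 771 in APLNR+ cells, 768 to 865 in HEPs and 805 to 952 in HPCs. From H1 to HPCs, 0 of the 23 rose and 6 fell, beside 14.6% and 22.5% of all genes, with a median difference of -0.70 on the log2 scale against -0.10 for all genes. PRIM1, the primase catalytic subunit, fell from 31.9 ± 4.50 to 10.4 ± 1.64 FPKM, a log2 difference of -1.53 (limma adjusted p = 5.35e-06). POLA1, the catalytic subunit of polymerase alpha, fell from 16.1 ± 2.39 to 5.62 ± 0.511 FPKM, a log2 difference of -1.36 (limma adjusted p = 1.17e-06). PRIM1 and POLA1 are the 2 largest of these falls with no overlap of libraries. Not all means of the list were lower in HPCs: that of TYMS was 17.2 FPKM in H1 and 33.2 FPKM in HPCs. DNMT1 and UHRF1, at 0.28 and -0.26 over the same comparison, were not called, and neither were most of the 23.

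The TET dioxygenases exchanged places over the course. TET1 was measured at 6.10, 10.6 and 10.7 FPKM in H1 and at 9.62, 14.2 and 14.9 FPKM in APLNR+ cells. HEPs had 1.95, 2.79 and 2.81 FPKM and HPCs 0.994, 1.24 and 1.55 FPKM. H1 and APLNR+ cells overlapped, both lay above HEPs, and HEPs lay above HPCs. The difference from H1 to APLNR+ cells was 0.47 (SE 0.21, limma adjusted p = 0.0780). It had an adjusted p under 0.05 in replicates 2 and 3 alone (0.41, limma adjusted p = 0.00785) and with upper-quartile (0.56), quantile (0.54) and median-of-ratios scaling (0.55), always under the 2-fold minimum. TET1 then fell by 1.97 on the log2 scale from APLNR+ cells to HEPs (SE 0.21, limma adjusted p = 4.36e-06), 5.12 times in FPKM, with -1.85 in replicate 1 and -2.03 in replicates 2 and 3. From HEPs to HPCs the difference was -0.63 (SE 0.21, limma adjusted p = 0.0247), under the 2-fold minimum on that scale, although the means of 2.52 ± 0.488 and 1.26 ± 0.281 FPKM stood 1.99-fold apart. Over the whole course TET1 fell by 2.13 (limma adjusted p = 1.58e-06), 7.24 times in FPKM, with -1.83 in replicate 1 and -2.29 in replicates 2 and 3.

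TET2, the TET gene best known for its part in blood cell differentiation, went the other way. It was measured at 0.561, 0.359 and 0.657 FPKM in H1, at 1.59, 2.29 and 2.15 FPKM in APLNR+ cells, at 1.45, 2.47 and 3.13 FPKM in HEPs and at 2.40, 4.27 and 5.21 FPKM in HPCs. H1 lay below the other populations in all libraries, APLNR+ cells overlapped HEPs, and HEPs overlapped HPCs. TET2 rose by 1.66 on the log2 scale from H1 to HPCs (SE 0.23, limma adjusted p = 2.69e-05), 7.53-fold in FPKM, with 1.12 in replicate 1 and 1.93 in replicates 2 and 3. It had also risen from H1 to HEPs, by 1.11 (SE 0.23, limma adjusted p = 0.000705), with 0.65 in replicate 1 and 1.34 in replicates 2 and 3, and the call ended at 0.94 when HEP replicate 3 was left out. The first step, from H1 to APLNR+ cells, was a difference of 0.98 (SE 0.23, limma adjusted p = 0.00282), just under the minimum. That step passed as a rise of 1.77 with a pseudocount of 0.1 in place of 1, and the FPKM means of 0.526 ± 0.152 and 2.01 ± 0.372 stood 3.83-fold apart. From HEPs to HPCs the difference was 0.55 (SE 0.23, limma adjusted p = 0.0568).

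TET3, which is best known from the oocyte and zygote, was called in none of the 6 comparisons. It was measured at 1.76, 2.48 and 2.32 FPKM in H1, at 3.48, 3.59 and 3.30 FPKM in APLNR+ cells, at 2.43, 2.90 and 2.64 FPKM in HEPs and at 2.12, 2.40 and 2.42 FPKM in HPCs. APLNR+ cells lay above the other populations in all libraries, and HEPs lay just above HPCs. The difference from H1 to APLNR+ cells was 0.49 (SE 0.10, limma adjusted p = 0.00165), under the 2-fold minimum, and that from APLNR+ cells to HEPs was -0.29 (SE 0.10, limma adjusted p = 0.0260). H1 and HPCs differed by 0.06 (SE 0.10, limma adjusted p = 0.617).

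As a share of the summed FPKM of the TET genes, TET1 made up 76.5% ± 3.57 in H1, 69.8% ± 3.95 in APLNR+ cells, 33.5% ± 0.703 in HEPs and 16.9% ± 1.18 in HPCs (SD, n = 3). The share of TET2 was 4.71% ± 2.00, 10.95% ± 0.438, 30.6% ± 5.85 and 51.4% ± 6.95 in the same order. TET3 held 18.8% ± 1.99, 19.3% ± 3.94, 36.0% ± 5.46 and 31.7% ± 6.14. TET1 was thus the leading TET transcript in all H1 and APLNR+ libraries and TET2 in all HPC libraries, while in HEPs the leading gene differed between libraries. The TET2 share separated all 6 pairs of populations and the TET1 share all but H1 and APLNR+ cells, each separated pair with an exact two-sided permutation p of 0.1 (adjusted 0.114). For H1 against APLNR+ cells the exact permutation p of the TET1 share was 0.2 (adjusted 0.218). The TET3 share overlapped between H1 and APLNR+ cells (exact permutation p = 0.9) and between HEPs and HPCs (exact permutation p = 0.4), tests that could not have gone below 0.1. Within each replicate number it was lower in HPCs than in HEPs, at 38.4% against 41.7%, 30.3% against 35.6% and 26.4% against 30.8%.

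**Figure D2:**
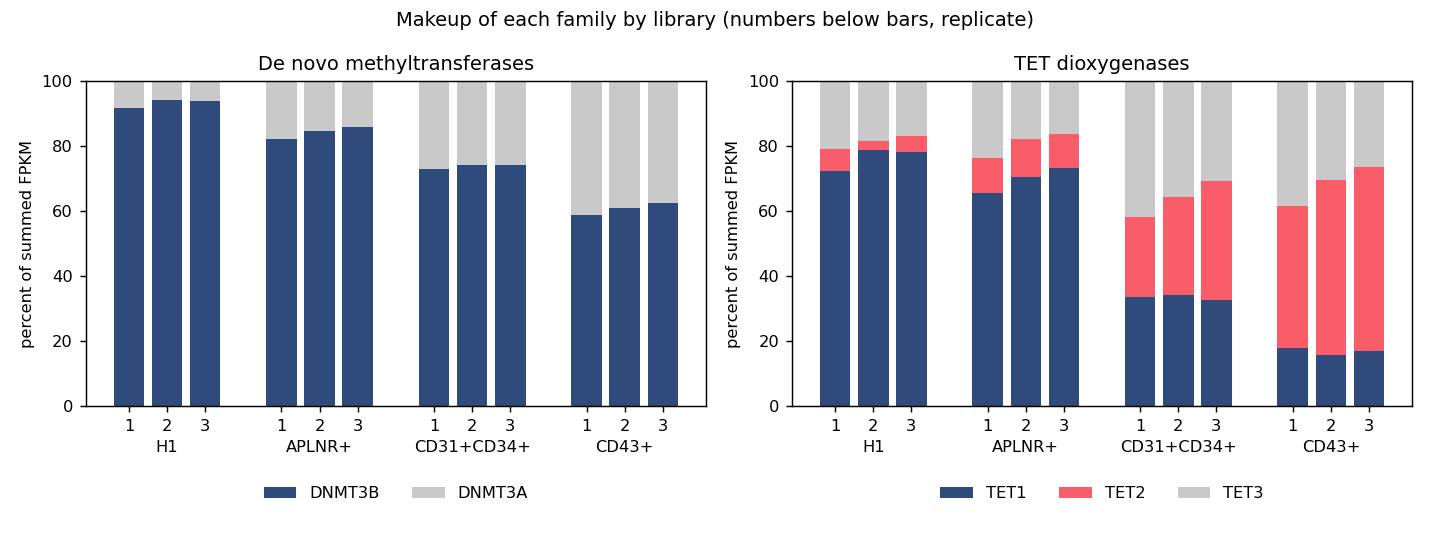
Percent of summed FPKM (vertical axis) held by DNMT3B and DNMT3A (left) and by TET1, TET2 and TET3 (right), with 1 bar per library and replicate numbers beneath the bars. DNMT3B made up 93.2% of its pair in H1 and 60.7% in CD43+ cells on average, and TET1 gave way to TET2, from 76.5% and 4.71% in H1 to 16.9% and 51.4% in CD43+ cells.

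TDG, the glycosylase that acts after the TET enzymes, fell at the same step as TET1. It was measured at 24.3, 29.8 and 29.6 FPKM in H1, at 24.8, 34.8 and 35.9 FPKM in APLNR+ cells, at 8.30, 13.3 and 10.2 FPKM in HEPs and at 12.2, 13.7 and 15.1 FPKM in HPCs. H1 and APLNR+ cells overlapped, as did HEPs and HPCs, and the earlier populations lay above the later ones in all libraries. From APLNR+ cells to HEPs TDG fell by 1.504 on the log2 scale (SE 0.17, limma adjusted p = 8.02e-06), 3.00 times in FPKM, with -1.47 in replicate 1 and -1.52 in replicates 2 and 3. From HEPs to HPCs the difference was 0.36 (SE 0.17, limma adjusted p = 0.104). H1 and HPCs differed by -0.98 (SE 0.17, limma adjusted p = 0.000250), just under the minimum, and the call turned on single libraries: without H1 replicate 1 TDG fell by 1.07 and without HPC replicate 3 by 1.05. TDG shares 6.74% of its 50-base stretches with other genes, all in the copy TDGP1, which was listed at 0 to 0.167 FPKM.

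Counted step by step over the 8 genes that entered the test, from H1 to APLNR+ cells 0 rose and 2 fell (DNMT3A and DNMT3B), where 8.3% of all genes rose and 7.62% fell. From APLNR+ cells to HEPs 0 rose and 2 fell (TET1 and TDG), where 12.5% of all genes rose and 17.1% fell. From HEPs to HPCs limma called 0 of the 8 in either direction, where 5.58% of all genes rose and 8.79% fell. At that last step 4 of the 8 had an unadjusted p under 0.05 and 2 an adjusted p under 0.05 (DNMT3B and TET1), both under the 2-fold minimum.

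The comparisons over longer intervals share libraries with these steps and are given for their own values. From H1 to HPCs 1 of the 8 rose (TET2) and 2 fell (DNMT3B and TET1), beside 14.6% and 22.5% of all genes. From H1 to HEPs 1 rose (TET2) and 3 fell (DNMT3B, TET1 and TDG), beside 16.9% and 23.2% of all genes. From APLNR+ cells to HPCs 0 rose and 3 fell (DNMT3B, TET1 and TDG), beside 14.1% and 19.4% of all genes. The median difference of the 8 genes was 0.10, -0.15 and -0.05 on the log2 scale at the 3 consecutive steps, and that of all genes -0.12, -0.01 and -0.00492.

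**Figure D3:**
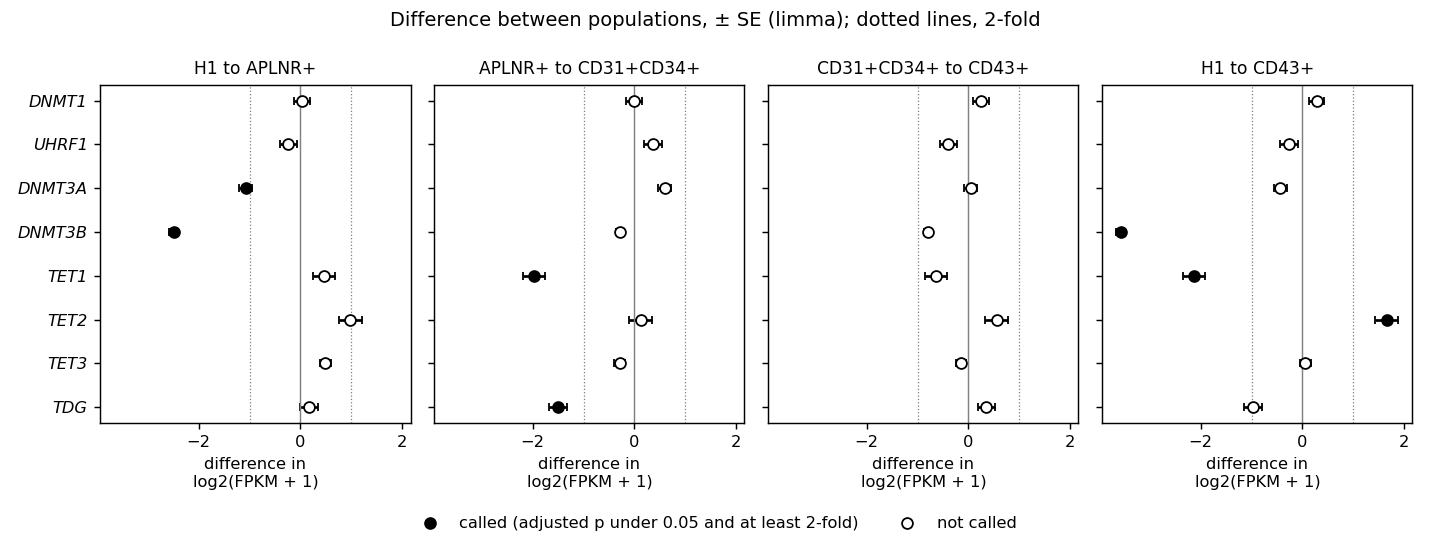
Difference between populations on the log2(FPKM + 1) scale (horizontal axes) with its standard error from limma for the 8 tested genes, in the 3 consecutive steps and from H1 to CD43+ cells. Filled circles mark adjusted p under 0.05 with at least a 2-fold difference (dotted lines): DNMT3A and DNMT3B at the first step, TET1 and TDG at the second, none at the third, and DNMT3B, TET1 and TET2 over the whole course.

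Replicate 1 differed from replicates 2 and 3 in the same direction in all 4 populations for 5 of the 8 tested genes. It was lower for DNMT1 (by -0.48 to -0.19 on the log2 scale), TET1 (by -0.72 to -0.26), TDG (by -0.50 to -0.22) and DNMT3B (by -0.20 to -0.05), and higher for UHRF1 (by 0.18 to 0.52). DNMT3A was higher in replicate 1 of 2 populations and lower in 2, and TET2 and TET3 were each lower in 3 of 4. These offsets are larger than several differences between populations of DNMT1, UHRF1 and TET3. The study names more than 1 company for its RNA-seq as a whole. Whether the libraries used here were divided between companies is not given in the sources used here. The part of any such division, or of the lower depth of replicate 1, was not tested. With replicates 2 and 3 alone, the changes called above kept their call and TET2 also passed from H1 to APLNR+ cells, at 1.10.

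**Figure D4:**
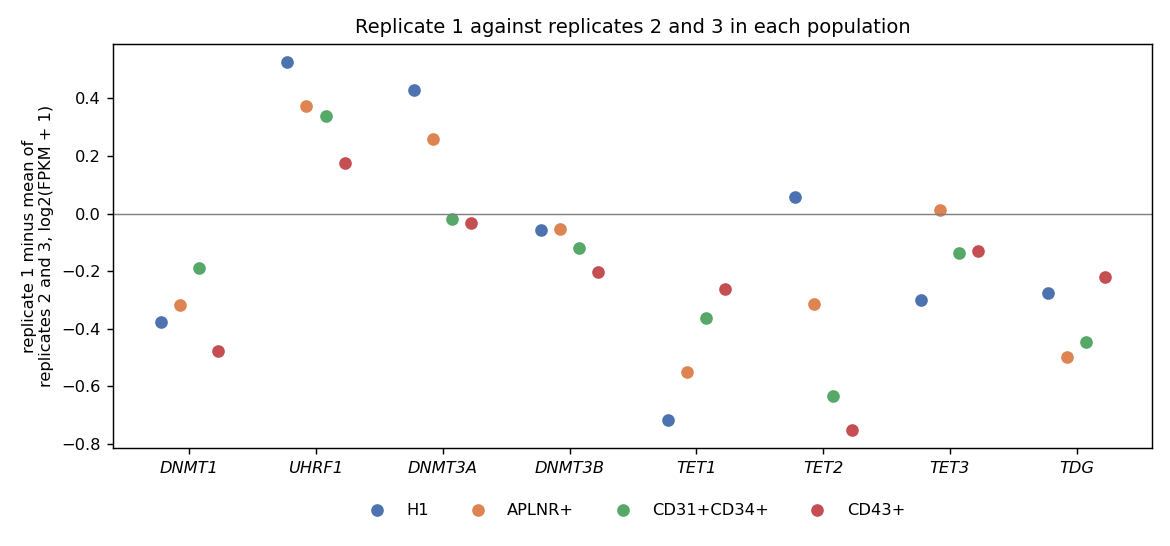
Level in replicate 1 minus the mean of replicates 2 and 3 on the log2(FPKM + 1) scale (vertical axis) for the 8 tested genes, with 1 point for each of the 4 populations. All 4 points lie below 0 for DNMT1, DNMT3B, TET1 and TDG and above 0 for UHRF1.

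Among other genes of the pathway, listed by role, partners that guide methyltransferases or help maintenance came first. Of 16 such genes, 15 were tested, and from H1 to HPCs 0 rose and 5 fell, beside 14.6% and 22.5% of all genes, with a median difference of -0.48 on the log2 scale against -0.10 for all genes. PCNA stands in this list and among the S-phase genes. EHMT1, also in this list, had an outlying mean of 12031.5 FPKM in HEPs, against 37.2 in H1, 25.0 in APLNR+ cells and 26.5 in HPCs. HELLS, the chromatin remodeller that gives DNA methyltransferases access to nucleosomal DNA, fell from 136 ± 6.13 FPKM in H1 through 61.7 in APLNR+ cells and 16.3 in HEPs to 15.8 ± 1.64 FPKM in HPCs, a log2 difference of -3.03 (limma adjusted p = 8.91e-10). CDCA7L, a relative of the HELLS activator CDCA7, fell from 64.5 ± 2.28 to 13.9 ± 2.37 FPKM, a log2 difference of -2.15 (limma adjusted p = 1.77e-08), and had reached 15.5 FPKM in APLNR+ cells. At the consecutive steps 0 rose and 2 fell, 0 rose and 3 fell, and 1 rose and 0 fell. Of all genes 8.3% rose and 7.62% fell at the first step, 12.5% and 17.1% at the second, and 5.58% and 8.79% at the third.

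Of 20 genes for TET cofactors and the repair of oxidised bases, 18 were tested, and from H1 to HPCs 2 rose and 3 fell, shares near or under the 14.6% and 22.5% of all genes, with a median difference of -0.12 against -0.10. The genes named here are described as single genes. Of the isocitrate dehydrogenases, which make the 2-oxoglutarate that TET enzymes consume, IDH1 fell, IDH2 rose and IDH3A was not called from H1 to HPCs. IDH1, the cytosolic enzyme, fell from 237 ± 4.33 FPKM in H1 to 53.0 ± 6.77 FPKM in HPCs (log2 difference -2.15, limma adjusted p = 4.39e-09), and the mitochondrial IDH2 rose from 30.5 ± 0.996 to 117 ± 9.09 FPKM (log2 difference 1.90, limma adjusted p = 1.31e-09). Both lay near their H1 level in APLNR+ cells, at 201 and 36.1 FPKM, and near their HPC level in HEPs, at 58.7 and 142 FPKM. IDH3A, a subunit of the NAD-dependent mitochondrial enzyme, had means of 12.6 FPKM in H1 and 10.8 FPKM in HPCs. GADD45A, a stress-response gene linked to demethylation by repair, rose from 4.29 ± 0.249 to 22.0 ± 3.24 FPKM (log2 difference 2.11, limma adjusted p = 2.81e-09) with its highest mean, 33.5 FPKM, in APLNR+ cells. MBD4, a glycosylase that like TDG removes thymine from mismatched CpG sites, fell from 15.3 ± 1.21 to 5.57 ± 0.727 FPKM (log2 difference -1.31, limma adjusted p = 2.05e-07). At the consecutive steps 3 rose and 1 fell, 1 rose and 3 fell, and 0 rose and 2 fell. The shares of all genes that rose and fell were 8.3% and 7.62%, 12.5% and 17.1%, and 5.58% and 8.79%.

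Of 9 genes of methyl-CpG binding proteins and their relatives by domain, 8 were tested, and from H1 to HPCs 1 rose and 1 fell, no more than the 14.6% and 22.5% of all genes, with a median difference of 0.53 against -0.10. Not all of them read methylated CpG: MBD3, MBD5 and MBD6 carry the domain but are not known to bind it. MBD2, which binds methylated CpG as part of a NuRD complex, fell from 9.05 ± 1.22 to 2.63 ± 0.418 FPKM (log2 difference -1.47, limma adjusted p = 3.05e-07). MBD6, the gene that rose, went from 0.858 ± 0.494 to 2.95 ± 0.516 FPKM (log2 difference 1.11, limma adjusted p = 0.000659). Of 14 genes of the methyl donor cycle, which supplies S-adenosylmethionine, 12 were tested, and limma called 0 of them from H1 to HPCs, with 9 at an unadjusted p under 0.05 and a median difference of 0.14 against -0.10. At the consecutive steps 0 rose and 4 fell, 0 were called (5 at an unadjusted p under 0.05), and 2 rose and 0 fell. Beside these stand rises and falls of 8.3% and 7.62%, 12.5% and 17.1%, and 5.58% and 8.79% of all genes.

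Germline genes, many of which are kept silent by promoter methylation in somatic cells, gave little to measure. Of 14, only PIWIL2 entered the test, a PIWI protein of the germline piRNA pathway. It fell from 5.98 ± 0.320 FPKM in H1 to 0.787 ± 0.150 FPKM in HPCs, a log2 difference of -1.97 (limma adjusted p = 2.71e-09). The genes left out of the test did not all run the same way from H1 to APLNR+ cells. The means of STK31 were 0.152 and 1.11 FPKM, and those of TEX14 were 0.593 and 0.0856 FPKM. Methylation of the promoters of these germline genes was not measured.

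The genes whose profiles over the 12 libraries were most like those of the members were found by the root mean square difference of centred log2(FPKM + 1) values among 14839 other genes. For DNMT3B these were FAM124A (0.166), LINC01405 (0.168) and DPPA4 (0.174), against a median of 1.37 over all genes, and DPPA4 belongs to the pluripotency genes summed above. For TET1 they were C12orf75 (0.187), SLC7A11 (0.1997) and DST (0.211), with a median of 1.13. TDG was nearest to TOPBP1 (0.124), THOC7 (0.126) and PDS5A (0.126), with a median of 0.775, and TET2 to AC108010.1 (0.176), DNAJC6 (0.181) and ISPD (0.192), with a median of 0.833. DNMT3A was nearest to TRMT112 (0.112), RCC2 (0.131) and LRRC45 (0.132), with a median of 0.639. DNMT1 had CRKL (0.0839), TMED8 (0.0923) and HIPK1 (0.0925), TET3 had PPP3CB (0.0875), TAF3 (0.0918) and HIST1H2BM (0.0952), and UHRF1 had ZNF212 (0.102), UQCC3 (0.116) and MIIP (0.125). Among the members themselves the nearest pair was DNMT1 and TET3, at 0.274, and TET1 and TDG stood at 0.562. These values are descriptions over libraries that share scaling and replicate offsets.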

How the data were processed

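The 9 genes and all gene lists were chosen with earlier results of these data known. FPKM values were deposited by the authors in 1 table, whose columns were matched to the samples by title. The submitters' processing notes name BWA, Bowtie, RSEM and hg19 without roles or versions, and neither the annotation nor a scaling of the libraries is given in the sources used here. Of 58365 lines of values, 345 symbols stood on several, and of these the line highest on average was used. Values were transformed as log2(FPKM + 1), genes reaching 1 FPKM in at least 3 libraries were kept (14840), and a model of the 4 population means without covariates was fitted with limma (version 3.58.1, R 4.3.3; lmFit, contrasts.fit, eBayes with trend). P values were adjusted by Benjamini-Hochberg over all genes of each of the 6 contrasts. The fit was tested on simulated data with independent noise, no offset of replicate 1 and changes well above the 2-fold minimum. That test therefore does not bear on calls near the minimum. Shares of summed FPKM were compared by exact two-sided permutation tests. FPKM are not counts, and no count model was run. Relative depth came from the most frequent ratio of values between 0.0001 and 0.2 FPKM to CD43+ replicate 3.

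From each list, up to 2 rises and 2 falls among called genes with non-overlapping libraries from H1 to CD43+ cells were named. Shared 50-base stretches and exon overlaps were computed from GENCODE 29 transcripts, and promoters were taken from RefSeq (GRCh38.p14), neither of which is the build of the table. Protein sequences were not analysed here. Permutation tests were run with scipy 1.17.1, tables were handled with pandas 2.3.3 and numpy 2.4.6 in Python 3.11.15, and matplotlib 3.10.9 drew the figures. As alternatives, the pseudocount was set to 0.1, the filter was dropped or replaced by a mean of 5 FPKM, and the libraries were scaled by upper quartiles, quantiles or median of ratios. Other fits had the replicate number as a block, only the compared populations, eBayes without trend, a minimum change of 1.5-fold or none, each library left out in turn, or replicates 2 and 3 alone. A term for replicate 1 was added after the data were seen.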

Additional observations from a re-analysis of the deposited data

How the results depend on the processing

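The 48 differences of the 8 tested genes were recomputed under 25 settings. Many settings cannot change the size of a difference, as they alter only its standard error, the genes tested or the minimum change. Among them are the fits that leave out a library of a population not compared. Of 1188 values, 1137 kept their direction and call, 5 lost the call, 29 gained it, mostly because the minimum change was lowered, and 17 changed sign. The 14 called changes kept their call in 315 of 320 values under settings with the 2-fold minimum. None changed sign, though many of these settings could not have changed it. The 5 losses were DNMT3A from H1 to APLNR+ cells (-0.98 with upper-quartile and -0.99 with median-of-ratios scaling, -0.94 without H1 replicate 1, -0.98 without APLNR+ replicate 3) and TET2 from H1 to CD31+CD34+ cells (0.94 without CD31+CD34+ replicate 3). A requirement of a mean of 5 FPKM removed TET2 and TET3 from the test.

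Gains with the 2-fold minimum were TET2 from H1 to APLNR+ cells (1.77 with a pseudocount of 0.1, 1.02 with upper-quartile and 1.01 with median-of-ratios scaling, 1.04 without H1 replicate 3, 1.08 without APLNR+ replicate 1, 1.10 in replicates 2 and 3) and TDG from H1 to CD43+ cells (-1.02 with a pseudocount of 0.1, -1.07 without H1 replicate 1, -1.05 without CD43+ replicate 3). With no minimum change, 4, 5 and 2 of the 8 genes were called at the 3 consecutive steps, 5 from H1 to CD43+ and 6 from APLNR+ to CD43+ cells. With a 1.5-fold minimum, 2 were called from CD31+CD34+ to CD43+ and 5 from APLNR+ to CD43+ cells. Leaving out single libraries gave 1 to 3 called genes from H1 to APLNR+ cells.

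Sign changes affected only differences that were not called, and the cause was not tested. Leaving out single libraries, DNMT1 ranged from -0.0898 to 0.14 (H1 to APLNR+), from -0.12 to 0.0532 (APLNR+ to CD31+CD34+) and from -0.10 to 0.11 (H1 to CD31+CD34+), where replicates 2 and 3 alone gave -0.0366. DNMT3A from CD31+CD34+ to CD43+ cells ranged from -0.00304 to 0.0873, TET2 from APLNR+ to CD31+CD34+ cells from -0.0396 to 0.34, TET3 from H1 to CD43+ cells from -0.0400 to 0.13 and UHRF1 from APLNR+ to CD43+ cells from -0.12 to 0.0976. UHRF1 in that comparison was 0.0165 with quantile normalization, 0.0402 with median-of-ratios scaling and 0.0387 in replicates 2 and 3 alone. With 1 FPKM added to each gene, the TET1 share was 67.6% in H1, 64.6% in APLNR+ and 21.6% in CD43+ cells, the TET2 share 10.6% in H1 and 14.1% in APLNR+ cells, and the TET3 share 21.7% in H1.

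The replicate numbers do not pair the samples by any label. Deviations of libraries with the same number correlated at -0.0214 to 0.429 over 18 pairs, and at 0.196 to 0.429 for the 6 pairs of replicate 1. The 12 pairs that share number 2 or 3 gave -0.0214 to 0.269, no higher than the 0.0213 to 0.289 of replicate 2 with replicate 3. No pairing by number was thus seen beyond replicate 1. With the replicate number as a block the called genes numbered 2, 2, 0, 3, 4 and 3 in the 6 contrasts, as without it, and all 48 calls held, as they did with the term for replicate 1. Differences under 2-fold gained in precision with the block: from H1, CD31+CD34+ and APLNR+ to CD43+ cells the limma adjusted p of DNMT1 was 0.00326, 0.00819 and 0.00730, and that of TET1 from H1 to APLNR+ cells was 0.00241. Counts of list genes stayed within 1.5 times in 773 of 828 values under settings with the 2-fold minimum. Precision is limited by 3 libraries per population and by an absolute depth that is unknown.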
